A study of Chrysanthemum x morifolium with 12 samples.

Results

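The petals compared here are those at the ends of the green range in a chrysanthemum (*Chrysanthemum x morifolium*) family: the dark green petals of Feeling Green Dark (FGD) against the white petals of Feeling White (FW). Both cultivars are bud sports of Feeling Green (FG), that is, vegetative mutants of a green-flowered parent, so each sport is 1 clonal line. The members were chosen by label alone and comprise the 3 FGD petal arrays and the 3 FW petal arrays, 6 of the 12 arrays of the series. All petals were ray petals of the middle stage of flower development (stage 2) from untreated plants grown in a greenhouse under natural daylight. The other 6 arrays, 3 of FG petals at the same stage and 3 of mature FG leaves, served to place the 2 sports relative to their parent. Expression was measured with 1-color arrays carrying 176026 probes, each designed on a contig of expressed sequence tags.

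Chlorophyll (Chl) is made in plastids from glutamate through 5-aminolevulinic acid (ALA), a chain of porphyrins, and a final branch. In that branch magnesium is inserted and protochlorophyllide is reduced by an enzyme that needs light. Chl *a* and Chl *b* are interconverted in the Chl cycle, and breakdown starts with the removal of magnesium from Chl *a*. The comparison of FGD with FW petals asks which transcripts of these steps, and of transcription factors, differ between petals at either end of the range of Chl content.

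The probe sequences were not used here. Some of the transcripts described are identified by the primer pairs that the study designed for RT-qPCR. Primers are shown, 5′ to 3′ and in lower case throughout because no part of them is singled out, for a pair of green-side enzymes and for 3 regulators with large differences between the sports. Whether a primer pair and an array probe lie on the same contig was not tested.
CRD forward: gtcatcattgagacaaaccgcact
CRD reverse: aagttcttcaccaacgggatgtca
PORC forward: gttcgccaatttgtggacacg
PORC reverse: atctagcaacaacctcgaaagaaga
COL16-like forward: gctgacgatgcttttctatgccaa
COL16-like reverse: cgaaactgcgcctgaaccaaa
MYB113-like forward: ggcgaaggcaaatggcatctt
MYB113-like reverse: gaagcttgtgaagccttagaatgagatc
MIF2 forward: ggtgagtgtcaaaggaaccatgc
MIF2 reverse: ccaccacccttctatggaagt

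Levels are given as the log2 signal of a probe relative to the 75th percentile of its own array, so that 0 is the level of a probe at that percentile. They are compared between samples and not between probes. The 75th percentile was a signal of 308 to 347 on the FGD arrays and 308 to 326 on the FW arrays, and 67.0% to 69.6% of the probes on the FGD arrays and 65.6% to 67.6% on the FW arrays were well above background. Across the 70270 probes tested, those with a mean signal of at least 100, arrays of a group correlated at 0.982 to 0.990 in FGD petals and at 0.982 to 0.991 in FW petals, whereas FGD arrays correlated with FW arrays at 0.850 to 0.893. The replicates were biological. In bulk tissue, fewer cells of a type and less RNA per cell cannot be told apart. Petal markers could not be looked up because only 90 probes carry a gene name, and the Chl synthesis probes of leaves, such as *CRD* at 8.39 ± 0.11 (SD, n = 3), are the single check of tissue.

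Many transcripts differed slightly between FGD and FW petals, and fewer differed strongly. Of the 70270 probes, 16864 (24.0%) were higher and 23629 (33.6%) lower in FGD petals at an adjusted p under 0.05 (limma, with Benjamini-Hochberg adjustment), 57.6% in all. Large differences leaned the other way: at a fold change over 5, 2281 probes (3.25%) were higher and 1094 (1.56%) lower in FGD petals, so that 67.6% of these 3375 probes (4.80% of those tested) were on the FGD side. The share on the FGD side was 61.3% at a fold change over 2, 72.5% over 15, and 73.7% over 50, where 171 probes were higher and 61 lower. Some of these folds are taken against signals not well above background. With such probes held to their least fold change, 140 were higher and 46 lower over 50. The median log2 difference of FGD from FW petals over all probes tested was -0.10 and the interquartile range was -0.39 to 0.32. A list of genes is read against that median below, and "called" is used of a probe past both the fold change over 5 and the adjusted p.

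**Figure D1:**
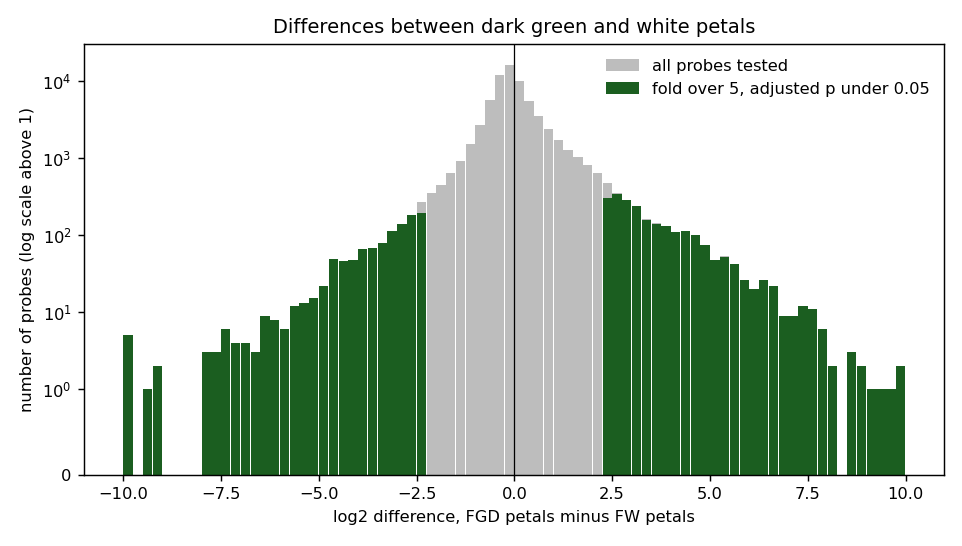
Number of tested probes (vertical axis, log scale above 1) by log2 difference of FGD petals minus FW petals (horizontal axis), with the probes past a fold change of 5 and an adjusted p of 0.05 in green. The right flank, with 2281 called probes, is heavier than the left flank, with 1094.

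The calls rest on the 6 arrays of the sports, so their separation there follows from the choice: the 3 FGD arrays lay above the 3 FW arrays for 2278 of the 2281 higher probes and below for 1092 of the 1094 lower ones (27.0% and 38.7% of all probes tested). A smaller set was detected in a single sport. For 164 called probes the signal was well above background on all 3 FGD arrays and on 0 of the 3 FW arrays. Of these, 128 were well above background on all 3 FG petal arrays and 22 on none, and 134 were so on all 3 leaf arrays and 22 on none. Over all probes tested, 99.5% were well above background on all 3 FG petal arrays and 0.287% on none, and 97.5% were so on all 3 leaf arrays and 1.47% on none. The signal minimum, set over the 12 arrays, favors probes that are bright in FG petals or leaves. The opposite pattern, 0 of 3 FGD arrays and all 3 FW arrays, was found for 53 probes, of which 40 were well above background on all 3 FG petal arrays and 8 on none, and 31 were so on all 3 leaf arrays and 18 on none.

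The arrays lay on 3 slides, each scanned once according to the headers of the files. One slide held FGD replicates 1 and 2 with FW replicates 2 and 3, while FGD replicate 3 shared a slide with the FG leaves and FW replicate 1 shared a slide with the FG petals. Within the common slide, 3375 of the 3375 called probes differed in the same direction as over all 6 arrays, and 2977 of them still by more than 5-fold; these 4 arrays are among the 6. In a fit of the arrays of this shared slide alone, 2248 probes were called higher and 951 lower in FGD petals. Of the 3375 called probes, 2967 were called again in the same direction.

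**Figure D2:**
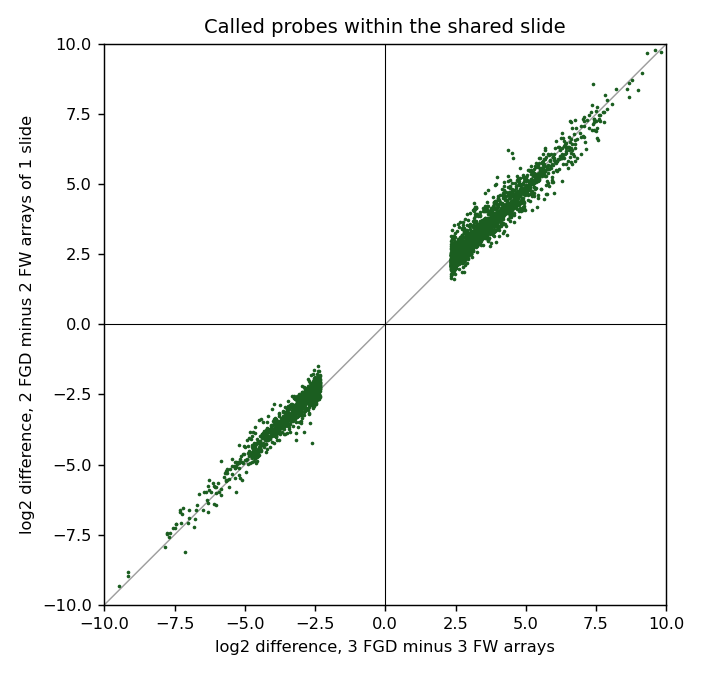
Log2 difference of FGD from FW petals for each of the 3375 called probes, over the 3 FGD and 3 FW arrays (horizontal axis) and over the 2 FGD and 2 FW arrays of the slide that held both (vertical axis); the gray line marks equal values. The points follow the line, and none of the 3375 changed sign.

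Chl biosynthesis transcripts were mostly higher in FGD petals. Of the 22 listed probes, 15 were higher, 1 was lower, and 6 did not pass an adjusted p of 0.05, beside 24.0% higher and 33.6% lower among all probes tested. At over 5-fold, 5 were called higher and 0 lower, beside 3.25% and 1.56%. The median log2 difference of the 22 probes was 1.18, beside -0.10 over all probes tested. Of the 22 probes, 16 reached the signal minimum and the others took their p from a fit of all probes. The list and its members were known to vary with petal color from these arrays, so the counts are a description.

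ALA synthesis, the start of the pathway, had probes on both sides. *HEMA1*, for glutamyl-tRNA reductase, was at -0.28, -0.35, and -0.22 on the FGD arrays and at -2.47, -2.18, and -2.11 on the FW arrays, and a second glutamyl-tRNA reductase contig, *HEMA2*, was at -1.11, -0.97, and -1.04 on the FGD arrays and at 1.12, 0.92, and 0.35 on the FW arrays. The groups did not overlap for either probe and stood in opposite order. *HEMA2* was 3.57-fold lower in FGD petals (log2 difference -1.84 ± 0.29 SE, adjusted p = 0.000343), and it was at 0.05 ± 0.44 in FG petals and 1.38 ± 0.52 in FG leaves (SD, n = 3 each). *HEMA2* is the single Chl biosynthesis probe that was lower in the greener sport. Both glutamate-1-semialdehyde aminotransferase probes, for the enzyme that completes ALA, were higher in FGD petals. *GSA2* was at 2.63, 2.71, and 2.53 in FGD petals and at 0.47, 1.13, and 0.80 in FW petals, 3.53-fold higher (adjusted p = 4.78e-06), and *GSA1* was 2.21-fold higher (adjusted p = 5.02e-06).

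The porphyrin steps moved by smaller amounts, and 6 of 8 probes were higher in FGD petals. *HEMC*, for porphobilinogen deaminase, was at 1.41, 1.45, and 1.38 on the FGD arrays and at -0.75, -0.31, and -0.56 on the FW arrays, with no overlap and a 3.88-fold difference (adjusted p = 1.23e-06). *HEMF*, for coproporphyrinogen oxidase, was at 0.26, 0.25, and 0.33 on the FGD arrays and at -1.76, -1.17, and -1.54 on the FW arrays, a 3.41-fold difference (adjusted p = 2.32e-06). *HEMC* and *HEMF* in FGD petals therefore varied little between arrays compared with the gap to FW petals. *HEME2* was 2.66-fold, *HEMG1* 2.30-fold, *HEME1* 2.25-fold, and *HEMB* 1.42-fold higher in FGD petals, for uroporphyrinogen decarboxylase (*HEME1* and *HEME2*), protoporphyrinogen oxidase (*HEMG1*), and ALA dehydratase (*HEMB*). *HEMG2*, a second protoporphyrinogen oxidase probe, differed by 0.10 ± 0.35 (log2 difference ± SE, adjusted p = 0.867). *HEMD*, for uroporphyrinogen III synthase, was well above background on 0 of the 12 arrays and has no fold change.

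The largest Chl biosynthesis differences lay in the magnesium branch, where all 5 called probes were found. *PORB*, for protochlorophyllide oxidoreductase, had the largest: its level was 2.98, 3.32, and 3.18 on the FGD arrays and -1.40, -0.70, and -0.83 on the FW arrays, which is 17.6-fold higher in FGD petals (log2 difference 4.14 ± 0.18 SE, adjusted p = 6.49e-08). *PORA*, a second gene for that enzyme, was at -0.85, -0.66, and -0.79 on the FGD arrays and at -3.46, -3.48, and -3.56 on the FW arrays, 6.65-fold higher (adjusted p = 6.95e-08). The petals of FGD and FW were far apart for both probes, but their relation to leaves differed from that of *PORC*, the third gene. *PORA* was at -2.05 ± 0.26 and *PORB* at 2.70 ± 0.19 in leaves, below the mean of FGD petals, whereas *PORC*, at 5.89, 5.72, and 5.82 on the FGD arrays and 3.17, 3.58, and 3.32 on the FW arrays, was highest in leaves, at 7.65 ± 0.08 (SD, n = 3 leaf arrays). *PORC* was 5.48-fold higher in FGD than in FW petals (adjusted p = 9.15e-08).

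*CRD*, for the magnesium protoporphyrin monomethyl ester cyclase, was at 6.28, 6.34, and 6.38 on the FGD arrays and at 2.16, 2.67, and 2.53 on the FW arrays, a 14.8-fold difference (adjusted p = 9.47e-09). *CHLH*, for the large subunit of magnesium chelatase, was at 3.63, 3.62, and 3.84 on the FGD arrays and at 0.55, 0.85, and 0.48 on the FW arrays, an 8.38-fold difference (adjusted p = 9.44e-08). The other subunits of that enzyme did not pass the test. *CHLD* was well above background on 3 FGD arrays (-4.42, -4.92, and -4.63) and on 0 of 3 FW arrays, at least 1.35-fold higher in FGD petals (adjusted p = 0.0516), and *CHLI* differed by 0.11 ± 0.12 (log2 difference ± SE, adjusted p = 0.565). *CHLM*, for the methyltransferase of the branch, was at 0.08, -0.10, and 0.00 on the FGD arrays and at -0.18, -0.23, and -0.24 on the FW arrays (adjusted p = 0.0757). These groups did not overlap, but their gap was small. *CHLG*, for Chl synthase, was 1.40-fold higher in FGD petals (adjusted p = 0.00766). *DVR*, for divinyl reductase, was well above background on 1 of 3 FGD arrays and 0 of 3 FW arrays (adjusted p = 0.768). In the fit of the shared slide alone, all 16 Chl biosynthesis probes past the threshold still passed it in the same direction.

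**Figure D3:**
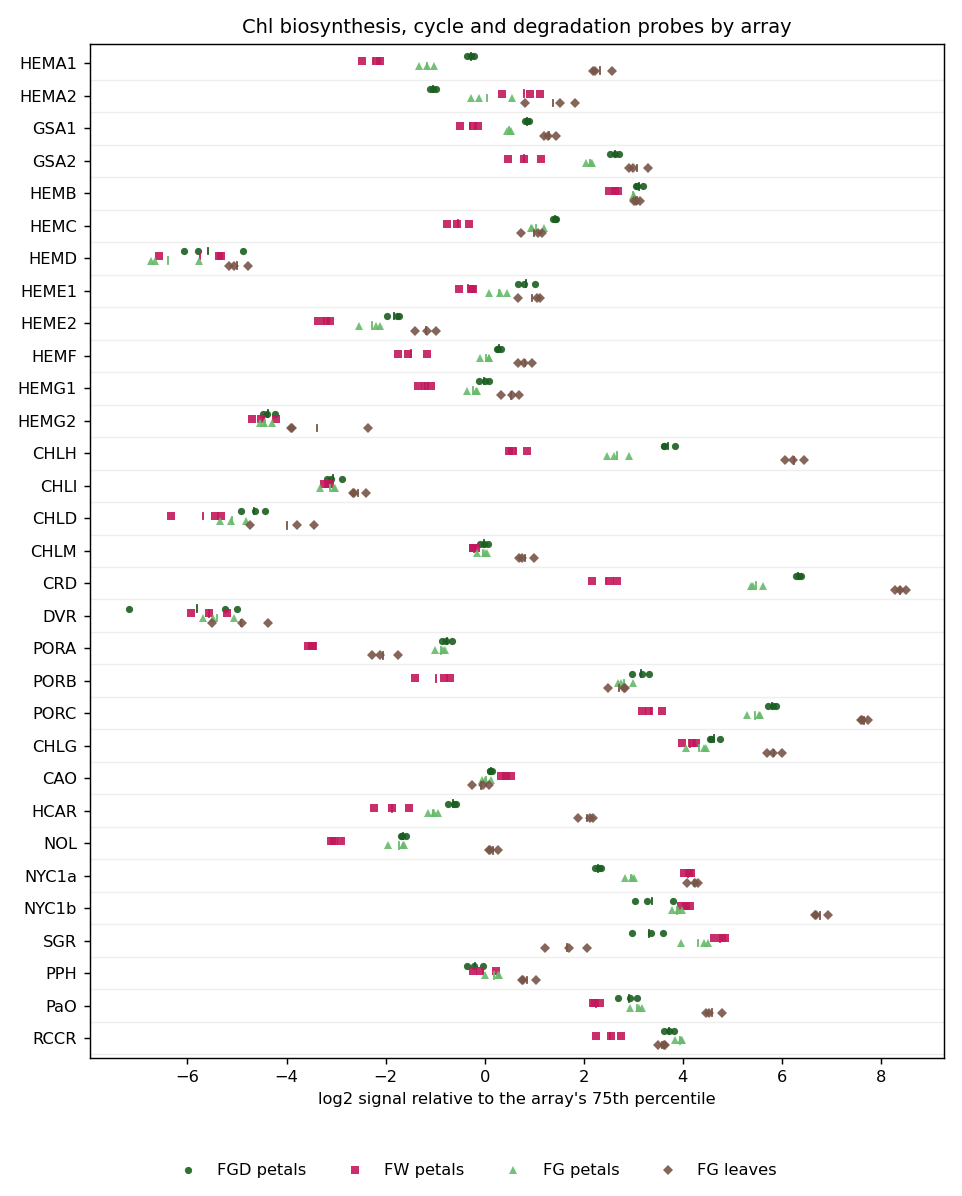
Log2 signal relative to the 75th percentile of the array (horizontal axis) of the 31 Chl metabolic probes, from the start of synthesis (top) to degradation (bottom). Each point is an array and each short line a group mean of FGD petals, FW petals, FG petals, and FG leaves, and all FGD points lie to the right of the FW points for 17 of the 22 synthesis probes, but to the left for *HEMA2*, *CAO*, *NYC1a*, *NYC1b*, and *SGR*.

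In the Chl cycle, the genes of Chl *b* reductase were split. *NOL* and *NYC1* encode the subunits that begin the conversion of Chl *b* to Chl *a*, and *HCAR* encodes the reductase that completes it. *NOL* was at -1.59, -1.66, and -1.69 on the FGD arrays and at -3.10, -2.91, and -3.05 on the FW arrays, whereas *NYC1a* was at 2.36, 2.22, and 2.30 on the FGD arrays and at 4.02, 4.13, and 4.16 on the FW arrays. Neither probe had overlapping groups, and the order was opposite. *NYC1a* was 3.50-fold lower in FGD petals (log2 difference -1.81 ± 0.08 SE, adjusted p = 8.00e-08), the largest difference on the FW side among the Chl cycle and degradation probes. It was at 2.95 ± 0.09 in FG petals and 4.22 ± 0.11 in leaves (SD, n = 3 each), so that FGD petals were lowest among the 4 tissues and leaves were near FW petals. A second *NYC1* contig, *NYC1b*, was at 3.80, 3.27, and 3.04 on the FGD arrays and at 3.97, 4.14, and 4.07 on the FW arrays. It was 1.61-fold lower in FGD petals (adjusted p = 0.00471, and 0.0677 on the shared slide alone). *HCAR* was at -0.58, -0.62, and -0.75 on the FGD arrays and at -2.23, -1.53, and -1.87 on the FW arrays, again without overlap. *CAO*, listed as chlorophyllide *a* oxygenase, which acts on the way to Chl *b*, was at 0.11, 0.15, and 0.10 on the FGD arrays and 0.34, 0.54, and 0.42 on the FW arrays. It was 1.24-fold lower in FGD petals (adjusted p = 0.0165, 0.0284 on the shared slide alone, and 0.0621 without FW petal replicate 2). In all, 2 of the 5 Chl cycle probes were higher and 3 lower in FGD petals, beside 24.0% and 33.6% of all probes tested. The Arabidopsis gene listed beside the *CAO* probe, like that beside *CHLI*, is not the one usually given for the enzyme, so these identities are less sure.

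Among the 4 Chl degradation probes, 2 were higher and 1 was lower in FGD petals, which is near the 57.6% of all probes tested that passed in either direction. *RCCR*, for red Chl catabolite reductase, was at 3.73, 3.63, and 3.81 on the FGD arrays and at 2.26, 2.76, and 2.55 on the FW arrays, 2.30-fold higher (adjusted p = 1.20e-05). *PaO*, for pheophorbide *a* oxygenase, was at 3.08, 2.94, and 2.70 on the FGD arrays and at 2.22, 2.33, and 2.18 on the FW arrays, 1.58-fold higher (adjusted p = 0.000743). FG petals, at 3.93 ± 0.08 for *RCCR* and 3.08 ± 0.13 for *PaO*, were above both sports' means (SD, n = 3 each). *SGR*, for the magnesium dechelatase that opens the degradation pathway, was at 3.60, 3.35, and 2.97 on the FGD arrays and at 4.79, 4.63, and 4.85 on the FW arrays, and leaves were lower than either, at 1.66 ± 0.43. *PPH*, for pheophytinase, was at -0.22, -0.03, and -0.36 on the FGD arrays and at 0.22, -0.24, and -0.09 on the FW arrays, with overlapping groups (adjusted p = 0.318). Later steps of the pathway and its opening step thus stood in opposite order between the sports.

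The study listed 59 transcription factor probes because they differed between a sport and FG on these same arrays, so their differences between the sports are not independent evidence and are given as a description. Of the 59, 37 were higher, 17 lower, and 5 not past the threshold in FGD against FW petals, beside 24.0% higher and 33.6% lower among all probes tested. Among the 37 that reached the signal minimum, 24 were called higher and 9 lower at over 5-fold, beside 3.25% and 1.56%. Several probes of a family gave nearly the same values, may measure the same or near-identical transcripts, and are not independent of each other. A fold change is called "at least" where no array of the dimmer group had the probe well above background; it is then taken against the lowest signal that was so on those arrays, or against the probe's own signal if higher.

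Among the listed transcription factors higher in FGD petals, a *COL16-like* probe, for a CONSTANS-like zinc finger protein, had the largest measured difference. It was at 1.94, 2.12, and 2.28 on the FGD arrays and at -4.61, -3.90, and -3.94 on the FW arrays, 76.8-fold higher in FGD petals (log2 difference 6.26 ± 0.18 SE, adjusted p = 6.00e-09). Another was 65.7-fold higher. The third, well above background on 1 of 3 FW arrays, was 27.3-fold higher as measured and 17.5-fold higher with the dim arrays raised to the lowest signal well above background. FG petals lay between the sports for all 3 *COL16-like* probes, and leaves, at 3.72 ± 0.11 for the first (SD, n = 3), lay above FGD petals. *GNC*, a GATA factor known in Arabidopsis to promote Chl synthesis, was at -1.03, -2.01, and -1.54 on the FGD arrays and not well above background on any FW array, at least 11.8-fold higher in FGD petals (adjusted p = 6.02e-07; adjusted p = 0.400 with a signal floor of 100), and FG petals were at -1.61 ± 0.25, within the range of the FGD arrays.

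Other families were also higher in FGD petals, with leaves on the FGD side for some and on the FW side for others. The 4 *ERF* probes, listed as DREB and EAR motif proteins, were 22.2-fold to 27.6-fold higher in FGD petals, and FG petals were above FGD petals in the mean of each. The 5 probes of the integrase-type family, listed as DNA-binding proteins, were 26.3-fold to 31.4-fold higher in FGD petals with FG petals between the sports. Of the 5 *HD40* probes, for a homeobox leucine zipper protein, 4 were 13.0-fold to 25.6-fold higher and the other at least 12.7-fold higher, and the dimmest 2 did not pass with a signal floor of 100 (adjusted p = 0.359 and 0.709). For the probe of *HD40* with the largest difference, the levels were 3.34, 3.05, and 2.64 on the FGD arrays and -1.89, -1.71, and -1.40 on the FW arrays, and leaves, at -1.83 ± 0.44 (SD, n = 3), were near FW petals. *TGA10*, for a bZIP protein, lay between -1.93 and -0.66 on the FGD arrays, while no FW or leaf array measured it well above background, at least 14.8-fold higher in FGD than in FW petals (adjusted p = 1.64e-05; adjusted p = 0.506 with a signal floor of 100). *IBH1*, for a basic helix-loop-helix protein, was at 0.66, 0.57, and 0.83 on the FGD arrays and at -3.73, -4.69, and -4.58 on the FW arrays, 32.4-fold higher (adjusted p = 1.17e-06). The *AP2/B3-like* probe was at least 12.9-fold higher in FGD petals (adjusted p = 1.64e-06; adjusted p = 0.0639 with that floor).

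The *RAD-MYB3* probes, for RADIALIS-like SANT/MYB proteins, were higher in FGD petals in 3 of 3 cases but divided by their level in FG petals. One was at 1.43, 1.75, and 1.42 on the FGD arrays and at -4.12, -4.33, and -4.61 on the FW arrays (59.2-fold, with 2 of 3 FW arrays well above background), and FG petals were at 0.77 ± 0.08 (SD, n = 3). The second was between 1.60 and 2.78 on the FGD arrays and between -3.91 and -2.53 on the FW arrays (47.0-fold, adjusted p = 1.50e-05), with FG petals at -4.22 ± 1.13 and leaves at 5.73 ± 0.46. The third was at least 35.8-fold higher in FGD petals and was well above background on 0 of 3 FG petal arrays. FG petals thus resembled FGD petals for the first probe and FW petals for the others. The related *RAD-MYB4* probes differed little between the sports: the log2 differences were 0.73, 0.94, and 1.27. Of the 3, 1 passed the threshold (adjusted p = 0.00935, and 0.127 with normexp background correction). On the shared slide alone, that probe and another passed (adjusted p = 0.00882 and 0.0384).

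A few probes were high in FGD petals alone among the petals. *NAC057*, for a NAC protein, was at -0.12, -0.72, and 0.07 on the FGD arrays and not well above background on any FW array, at least 28.4-fold higher in FGD petals (adjusted p = 8.22e-05), and it was well above background on 1 of 3 FG petal arrays and on no leaf array. *KANADI4*, for a member of the KANADI family, was at -2.21, -2.23, and -2.91 on the FGD arrays and well above background on no other array of the series, at least 6.21-fold higher than in FW petals (adjusted p = 0.000113). *NTL8*, for a membrane-bound NAC protein, was higher in FGD petals by 3.59 ± 0.66 (log2 difference ± SE), with 2 of 3 FW arrays well above background. Its adjusted p was 0.00248, and 0.0247 on the shared slide alone. All of these probes lay under the signal minimum. Both *SHN3* probes, for an AP2 protein of the SHINE group that acts on cuticle lipids in Arabidopsis, were higher in FGD petals, 6.63-fold (adjusted p = 0.00707) and 5.77-fold (adjusted p = 0.0144), and the p of the second was 0.0558 without FW petal replicate 1.

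Among the listed transcription factors, the largest differences on the FW side were those of *MIF2*, for a mini zinc finger protein. Its 6 probes were all lower in FGD petals. The one with the largest difference was at -0.91, -0.77, and -1.41 on the FGD arrays and at 6.95, 6.39, and 6.87 on the FW arrays, 217-fold lower in FGD petals (log2 difference -7.76 ± 0.39 SE, adjusted p = 1.61e-07). Others were 181-fold, 175-fold, and 126-fold lower, and 2 probes that no FGD array measured well above background were at least 121-fold and at least 13.5-fold lower in FGD petals (adjusted p = 0.180 for the last with a signal floor of 100). FG petals stood with FW petals, at 6.46 ± 0.43 for the first probe (SD, n = 3), and 0 of the 3 leaf arrays had any of the 6 probes well above background. FGD petals and leaves were thus low in *MIF2*, whereas FW and FG petals were high.

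*MYB113-like* probes, named for an Arabidopsis MYB protein that promotes anthocyanin synthesis, were lower in FGD petals in 4 of 4 cases. One was at -3.34, -3.35, and -3.14 on the FGD arrays and at 1.31, 0.70, and 0.67 on the FW arrays, 18.0-fold lower in FGD petals (adjusted p = 4.07e-06), and another was at -2.39, -2.17, and -2.22 on the FGD arrays and at 1.98, 1.27, and 1.23 on the FW arrays, 13.5-fold lower. Of the remaining ones, a probe with 1 of 3 FGD arrays well above background was 14.6-fold lower as measured and 8.35-fold lower with the dim arrays raised to the lowest signal well above background (adjusted p = 0.000529; adjusted p = 0.0706 within the shared slide), and the other was at least 14.6-fold lower. Neither of these passed with a signal floor of 100 (adjusted p = 0.505 and 0.214). In contrast to *MIF2*, FG petals were low for *MYB113-like*, at -4.75 ± 0.52 for the first probe (SD, n = 3), below FGD petals. The 3 probes of ovate family proteins (*OFP*), which act as repressors in Arabidopsis, were 13.3-fold, at least 18.7-fold, and at least 9.69-fold lower in FGD petals, and FG petals were also low.

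*NF-YB8* and *RRTF1* were low in FGD petals alone among the petals. *NF-YB8*, for a subunit of nuclear factor Y, was at -5.63, -4.68, and -4.31 on the FGD arrays and at -0.40, -1.54, and -0.95 on the FW arrays, with 2 of 3 FGD arrays well above background and FG petals at -0.55 ± 1.33 (adjusted p = 0.000224; adjusted p = 0.293 with a signal floor of 100). *RRTF1*, for a redox-responsive AP2 protein, was at -4.69, -4.04, and -3.11 on the FGD arrays and at 0.62, -0.36, and -0.65 on the FW arrays, 14.1-fold lower in FGD petals (adjusted p = 0.000381), with FG petals at 0.21 ± 0.50 (SD, n = 3). *DREB1D*, for a cold- and drought-related AP2 protein, was at least 2.77-fold lower in FGD petals. Its adjusted p was 0.00511, 0.0141 on the shared slide alone, and 0.245 with normexp background correction. A C2H2 zinc finger probe was at 0.28, 0.31, and 0.03 on the FGD arrays and at -3.17, -0.61, and -0.46 on the FW arrays, so that its 3.07-fold difference (adjusted p = 0.0359) rests largely on FW replicate 1. Without that array the log2 difference was 0.74, against 1.62 with it. *IAA29*, an auxin response repressor, was at -4.34 and -4.43 on FGD replicates 1 and 3, the spot of replicate 2 having been left out as an outlier, and at least 1.63-fold higher in FGD petals (adjusted p = 0.0237, and between 0.0537 and 0.0979 without FGD replicate 1 or 3 or any single FW replicate). The 5 probes that did not pass the threshold were *MYB15*, a SMAD/FHA domain protein, a basic helix-loop-helix protein, and 2 *RAD-MYB4* probes.

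**Figure D4:**
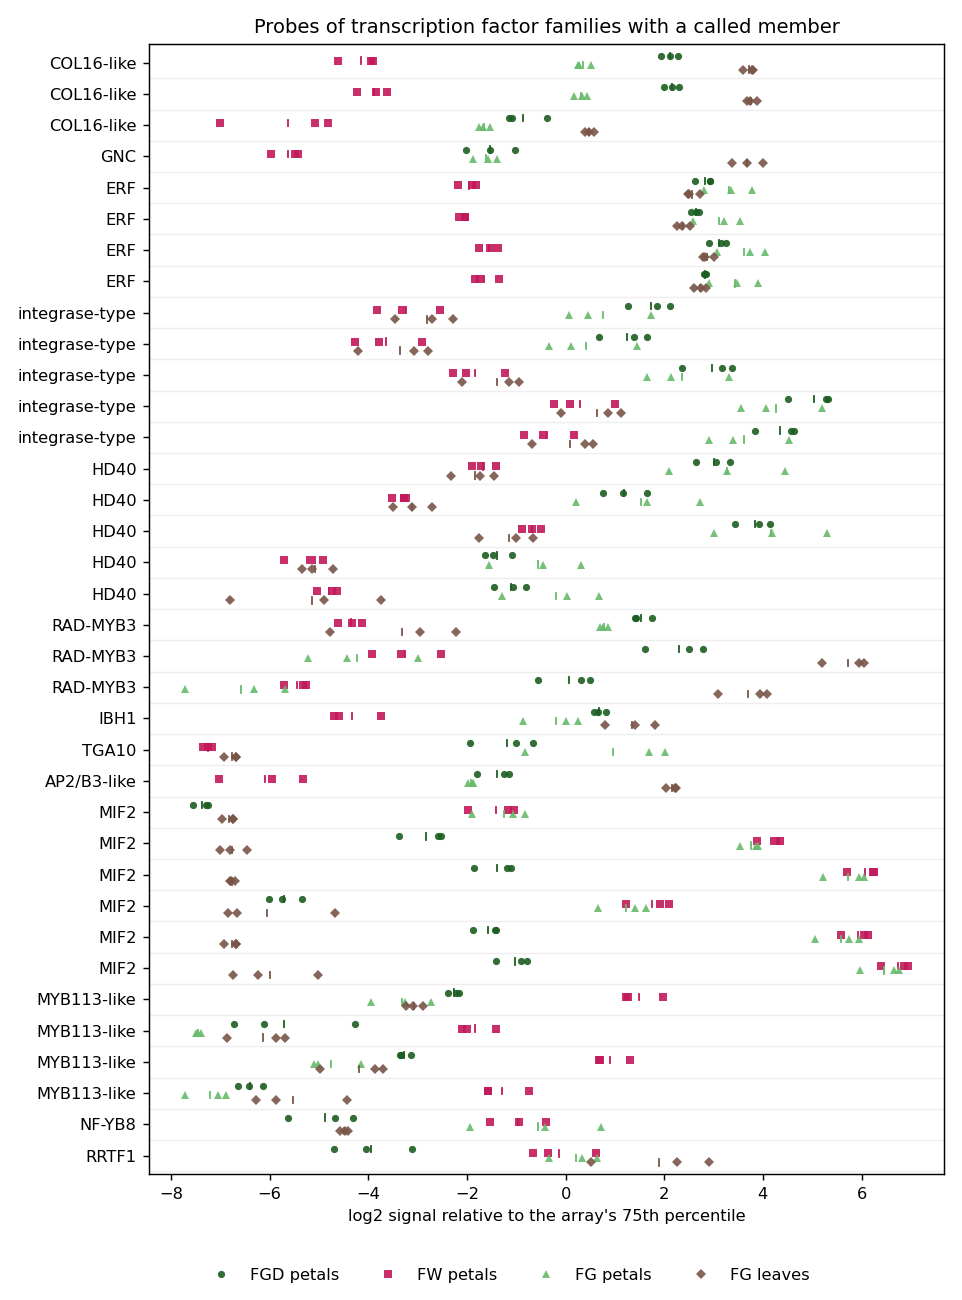
Log2 signal relative to the 75th percentile of the array (horizontal axis) for each probe of the transcription factor families with a called member, from *COL16-like* (top) to *RRTF1* (bottom). Each point is an array and each short line a group mean, and FG petals sit beside FGD petals for *ERF* and *HD40*, beside FW petals for *MIF2*, and between the sports for *COL16-like*.

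The largest measured differences among all probes, taken as the 5 largest each way among called probes that all 6 arrays measured well above background and that did not overlap, were mostly of probes with no gene name in the files. PD0028_073620 was at 6.19, 5.89, and 5.30 on the FGD arrays and at -3.60, -2.28, and -3.10 on the FW arrays, 442-fold higher in FGD petals (log2 difference 8.79 ± 0.68 SE, adjusted p = 2.71e-06). PD0028_040561 was at 7.24, 6.88, and 6.59 on the FGD arrays and at -3.23, -0.71, and -1.38 on the FW arrays, 410-fold higher (adjusted p = 2.27e-06), although its FW arrays spread more. Next came PD0028_119175 (238-fold), PD0028_045671 (235-fold), and PD0028_114565 (223-fold). Leaves divided these probes: PD0028_040561 was at 5.34 ± 0.71 in leaves, near FG petals at 5.05 ± 1.01 (SD, n = 3 each), whereas PD0028_045671 and PD0028_114565 were well above background on 1 of 3 leaf arrays. On the FW side, 3 of the 5 probes were *MIF2*, and the others, PD0028_039035 and PD0028_070679, were both 157-fold lower in FGD petals. PD0028_070679 was at -3.83, -2.40, and -3.98 on the FGD arrays and at 4.68, 3.07, and 3.91 on the FW arrays, and FG petals, at 0.28 ± 0.49 (SD, n = 3), lay near the middle. Neither was well above background on any leaf array.

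The parent was placed on a line that runs from the FW mean (0) to the FGD mean (1) of each called probe. Among the 2281 probes higher in FGD petals, the FG petal mean lay between the sports for 87.9%, at a median place of 0.76 (interquartile range 0.58 to 0.87). It was nearer to FGD for 1644, nearer to FW for 360, beyond FGD for 220, and beyond FW for 57. Among the 1094 probes lower in FGD petals, FG lay between the sports for 83.2%, at a median place of 0.40 (0.20 to 0.62), and it was nearer to FW for 575, nearer to FGD for 335, beyond FW for 105, and beyond FGD for 79. In the median, FG petals stood closer to FGD petals where FGD was the higher sport and closer to FW petals where FW was. Both places lie on the side of higher expression, which the signal minimum favors because FG petals count toward its mean. All 3 arrays of FG lay between those of the sports, with no overlap on either side, for 1394 of the higher and 549 of the lower probes, beside 6.72% and 9.25% of all probes tested. The probes were chosen for a wide gap between the sports, which makes a place between them more likely, so these places are a description and no test was made of them.

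**Figure D5:**
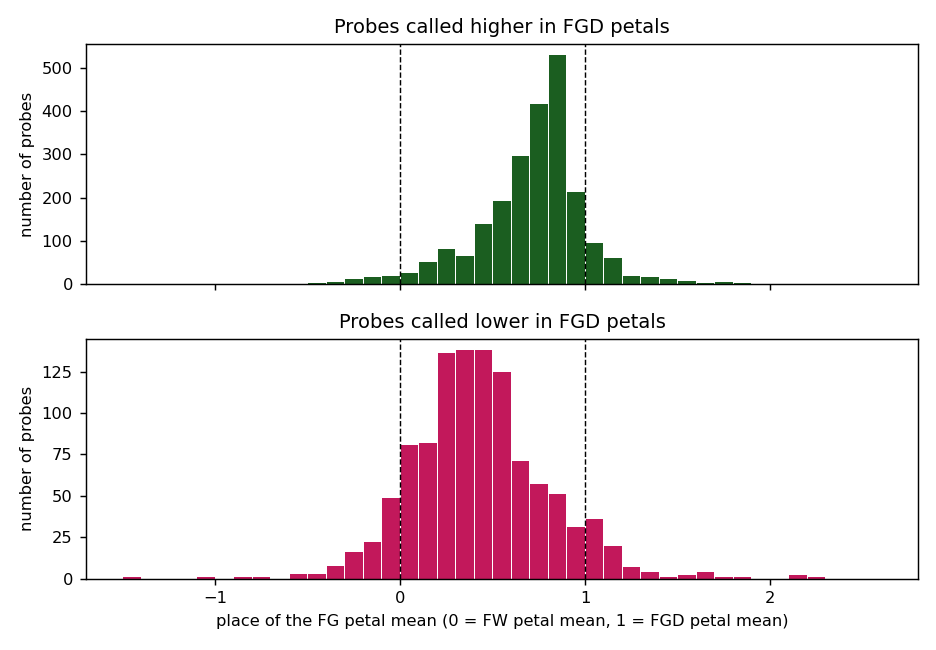
Number of called probes (vertical axis) by the place of the FG petal mean between the FW petal mean (0) and the FGD petal mean (1), for the 2281 probes higher (top) and the 1094 lower (bottom) in FGD petals; the dashed lines mark the sports. The upper distribution is centered at 0.76 and the lower at 0.40.

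Leaves against FG petals, a comparison that uses none of the FGD or FW arrays, was set beside these calls. All FG petal arrays lay on the same slide and all leaf arrays on another, so the arrays compared cannot by themselves separate tissue from slide. The shares and examples below carry that limit. Of the 2281 probes higher in FGD petals, 759 (33.3%) were higher and 377 (16.5%) lower in leaves than in FG petals at over 5-fold and an adjusted p under 0.05. Of the 1094 probes lower in FGD petals, 179 (16.4%) were higher and 409 (37.4%) lower in leaves. Over all probes tested, 6.82% were higher and 7.06% lower in leaves. Probes of the present contrast thus differed between leaves and FG petals more often in both directions, with the larger share on the side of the FGD petals. The examples that follow passed an adjusted p under 0.05, at any fold change. *HCAR*, *NOL*, *CRD*, and *COL16-like* were higher in both FGD petals and leaves, and *MIF2* was lower in both. *PORA* and *HD40* were higher in FGD than in FW petals and lower in leaves than in FG petals. *HEMA2*, *NYC1a*, and *NYC1b* were lower in FGD than in FW petals and higher in leaves than in FG petals.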

How the data were processed

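The 12 arrays were hybridized with Cy3-labeled RNA, 3 for each of 4 groups, and groups were taken from the sample labels. The authors deposited the intensity of each spot as given by Agilent Feature Extraction (10.10.1.1 in the file headers, 10.7.1.1 in the submitters' processing notes), background-subtracted and not scaled between arrays. The authors also deposited a log2 table of the same arrays, centered on an unstated value for each probe; its FGD and FW differences equaled those used here within 0.00013 over 175768 probes with no outlier spot. Here, log2 intensities were taken relative to the 75th percentile of each array. The 4854 control spots were left out, and outlier spots (7 to 37 per array) were treated as missing. No spot was saturated. Probes with a mean signal of at least 100 over 12 arrays (70270) were fitted with the limma method (3.58.1, in R 4.3.3), with 1 mean per group and moderated variances, and Benjamini-Hochberg adjustment. Fits were tested on simulated data. The number of arrays limits the precision.

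Genes were named only through the study's tables, for 90 probes, all of which were examined; the text gives in full the Chl probes and the families with a called member. To these were added the 5 largest differences each way. Members and lists were chosen with earlier results of these data known. Alternatives were other normalizations, background correction, filters, arrays, variances, and thresholds, and the omission of each array. Fits with a block for slide or for replicate number did not isolate the difference of FGD from FW petals and are not reported. Normexp on median signals, the treatment of probes at the floor, and keeping outlier spots were chosen after seeing the data. Plots used matplotlib 3.10.9 and Python 3.11.15.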

Additional observations from a re-analysis of the deposited data

How the results depend on the processing

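None of the probes examined singly that passed the threshold changed direction under any alternative run. The numbers of called probes (2281 higher and 1094 lower in FGD petals) were 1334 and 610 with normexp background correction, 1421 and 666 with a signal floor of 100, 3852 and 2064 with no filter, 3754 and 1976 with a filter on probes well above background in all FGD or FW arrays, 7691 and 4856 at a 2-fold limit, and 731 and 279 at a 15-fold limit with the adjusted p limit at 0.01. They ranged over 2148 to 2460 and 989 to 1173 when an array was left out. The cause was not tested, except that the filters and thresholds change which probes can be called. Normalization moved the median log2 difference by at most 0.0174. With the floor, 22 named probes were at the floor on all FGD and FW arrays and had no value. Among the rest, 23 transcription factor probes were higher and 10 lower in FGD petals, and 1 Chl cycle probe was higher.

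The share of probes with FG petals between the sports was, for higher and lower calls, 92.1% and 86.4% with normexp, 92.2% and 87.5% with the floor, 84.6% and 80.0% with no filter, and 84.9% and 80.8% with the other filter, and it was 78.0% to 86.0% for lower calls when an array was left out. The share also called in leaves in the same direction was 24.9% and 29.3% with normexp, 26.5% and 29.0% with the floor, 27.3% and 28.1% with no filter, and 27.3% and 29.3% with the other filter. It was 29.4% for higher calls with quantile normalization, and 34.3% to 40.2% for lower calls when an array was left out.

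The number of Chl cycle probes lower in FGD petals was 2 with no filter and on the shared slide alone, and 2 to 3 when an array was left out. Replicate numbers are not stated to pair the samples and were not taken to do so. Deviations of equal numbers correlated at -0.36, -0.12, and -0.27. These values cannot decide whether the numbers paired samples, because unequal numbers were not compared and the slides were spread unevenly over the numbers. The C2H2 probe had adjusted p values of 0.0826, 0.0837, and 0.0622 without FGD replicates 1, 2, and 3. Its largest was 0.0914, with the FGD and FW arrays alone. Of the 97 probes examined singly (the 90 with a gene name and 7 of the largest differences), 4 no longer passed 0.05 with normexp, and with the floor 10 of the 75 that had a value no longer did: *GNC*, *TGA10*, the *AP2/B3-like* probe, 2 *HD40*, 2 *MYB113-like*, 1 *MIF2*, *NF-YB8*, and *bZIP68*. *CHLD* and *CHLM* each passed the threshold under some alternatives, such as the fit of the petal arrays alone (adjusted p = 0.0271 and 0.0473).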
